A study of Laguncularia racemosa with 22 samples.

Results

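Leaves of *Laguncularia racemosa*, the white mangrove, held a group of late-rising transcripts, whose level was not higher at 3 h than at 0 h by more than a set limit and was high at both 12 and 36 h. They are 150 of 54696 assembled genes, chosen by their measured levels. A gene's level was its CPM, the count scaled to a fixed library total, averaged as log2(CPM + 1) over the libraries of a group. A total of 16061 genes had a mean of at least 1 CPM, and in 13649 of these the level at 3 h was less than 0.5 above that at 0 h on the log2 scale in both P and Q, the 2 letters in the sample titles. The members are the 150 of these with the highest score, where the score is the smallest of 4 differences, namely 12 and 36 h minus 0 h in P and in Q. All 150 belonged to the 21694 genes with counts high enough to be tested.

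Seedlings were wild type by their labels and 8 weeks old, and RNA came from leaves. The 22 libraries form 8 groups. Labels of P give a treatment at freezing temperature for 0, 3 and 12 h, and for 12 h followed by a day of recovery, written as 36 h in the titles. Those of Q read control at each of the 4 times. One treatment text stands with both letters and describes seedlings held at 0 °C and later returned to growth at 30 °C by day and 28 °C by night. All groups are also described with 16 h of light and 8 h of dark. What was done to Q is not stated, and seeds came from 2 places that the labels do not tie to a letter. Comparing P with Q hence compares all that goes with the letter. Groups had 3 libraries, or 2 in P at 3 and 36 h, and total counts were 13743563 to 18462363 per library. The labels do not give the hour of the day at sampling. The 12 and 36 h samples were a day apart and the 0 h samples were not, so time of day and time since the start cannot be told apart, in P or in Q.

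Plants of warm coasts are limited in their range by cold, and mangroves lose leaves and shoots after frost. In Arabidopsis, where the response to cold is best known, CBF transcription factors are made soon after cooling, and the transcripts of their targets, the COR genes, build up later, among them proteins that protect membranes and cells as water is lost. Many leaf transcripts also follow a daily rhythm. The files give each gene only an ID made by Trinity, a program that assembles transcripts from reads, and pair no ID with a name. No function, pathway or sequence is therefore given for any member, and counts of pathway genes were not made.

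The rule fixes the course of the members in time, so their levels against 0 h are given as a description. The difference from 0 h in log2(CPM + 1) was 1.07 to 5.16 at 12 h in P, with a median of 1.67, and 1.07 to 6.20 at 36 h in P, with a median of 1.90. In Q it was 1.09 to 4.70 at 12 h, with a median of 1.93, and 1.05 to 5.02 at 36 h, with a median of 1.80. The added 1 shrinks these differences for members of low level. The fitted log2 changes, which have no such term, had medians of 2.16 at 12 h and 2.18 at 36 h in P, and 2.35 and 2.06 in Q, with quartiles between 1.55 and 3.24. At 3 h the median difference was -0.02 in P and 0.12 in Q. The rule sets no lower limit at 3 h, and the lowest member was at -1.32 in P and -1.43 in Q. A total of 39 members lay below their 0 h level at 3 h in both letters, and 63 lay at least 0.25 above it in at least 1 letter. The fitted log2 changes at 3 h had medians of 0.02 in P and 0.28 in Q, or 0.17 in Q with library totals. Over all genes the median in Q was -0.02, or -0.13 with library totals. The members' fitted changes ran from -2.40 to 3.29 in P and from -2.00 to 2.75 in Q. In P 76 of the 150 members were above 0 and in Q 109, beside 47.3% and 47.9% of all genes. The limit at 3 h holds on the scale with the added 1, so members of low level could pass it with a larger fitted rise. The smallest of the 4 differences was 12 h in P for 53 members, 36 h in Q for 45, 36 h in P for 31 and 12 h in Q for 21.

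The edge of the group follows from its 2 limits. The last 3 members were TRINITY_DN58665_c0_g1, TRINITY_DN6517_c1_g2 and TRINITY_DN10357_c0_g1, with scores of 1.066, 1.065 and 1.054. The first 3 genes outside were TRINITY_DN1044_c3_g1, TRINITY_DN430_c2_g1 and TRINITY_DN1995_c0_g2, with scores of 1.049, 1.042 and 1.041. The scores therefore pass through this edge without a gap. The limit at 3 h removed far more: 403 other genes of at least 1 CPM had a score as high as the lowest member's, and all of them exceeded the limit at 3 h, 262 in both letters, 32 in P only and 109 in Q only. The members are thus the smaller share of the genes that were high at 12 and 36 h in both letters.

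Together the members took a small share of each library, and this share was higher at the later times. In P it was 0.228%, 0.270% and 0.279% of all counts at 0 h, 0.242% and 0.239% at 3 h, 0.835%, 0.873% and 0.826% at 12 h, and 1.19% and 1.24% at 36 h. In Q it was 0.209%, 0.298% and 0.217% at 0 h, 0.242%, 0.276% and 0.269% at 3 h, 1.02%, 0.966% and 0.946% at 12 h, and 1.05%, 1.20% and 1.22% at 36 h. No library of 12 or 36 h came near those of 0 and 3 h. In both letters every library of 36 h was above every one of 12 h. In a bulk sample of leaf, a change in the share of a cell type and a change in the RNA per cell cannot be told apart.

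**Figure D1:**
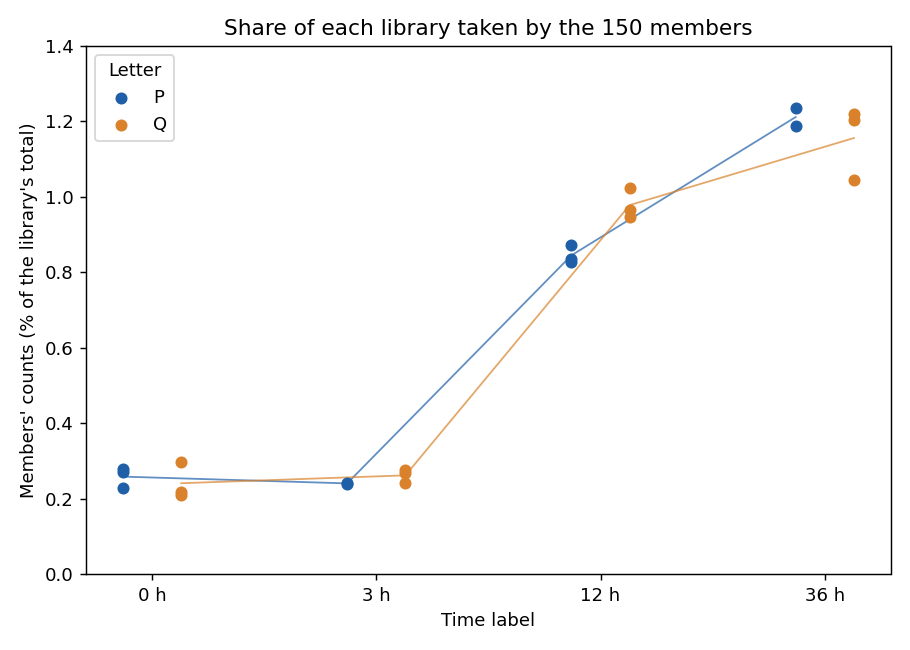
Share of each library's counts taken by the 150 members (y axis, %) at the 4 time labels (x axis), with 1 point per library, P in blue and Q in orange, and lines through the group means. All libraries of 0 and 3 h lie under 0.3%, and all of 12 and 36 h lie at 0.826% or above.

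A few abundant members carried much of the members' summed level. From here on CPM values are scaled by TMM, a method that makes libraries comparable when a few genes take many counts. The 5 most abundant held 31.0% of the members' summed CPM at 12 and 36 h, and the 10 most abundant held 43.1%. The median member stood at 33.5 and 28.2 CPM in the 2 libraries of P at 36 h, against 31.8, 30.0 and 30.2 CPM at 12 h. In Q it stood at 23.5, 29.2 and 28.7 CPM at 36 h, against 29.6, 34.2 and 35.2 CPM at 12 h. Scaled by library totals, as the share is, the median member stood at 35.0 and 30.3 CPM at 36 h in P, against 30.1, 27.0 and 28.0 CPM at 12 h, and at 24.9, 30.0 and 29.2 CPM at 36 h in Q, against 28.8, 33.9 and 34.2 CPM at 12 h. On that scale both P libraries of 36 h lay above those of 12 h, as with the share, and the Q libraries of the 2 times overlapped. With TMM the P libraries overlapped and each Q library of 36 h lay below those of 12 h.

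Members differed widely in where they began. Over the 6 libraries of 0 h, 30 members averaged under 1 CPM, 60 between 1 and 10 CPM, and 60 at least 10 CPM, of which only TRINITY_DN2832_c1_g2 reached 100 CPM. Over 12 and 36 h, 25 averaged at least 100 CPM and 36 under 10 CPM. The median member averaged 6.6 CPM at 0 h and 32.9 CPM at 12 and 36 h. Since 1 CPM was 13.7 to 18.5 counts in a library, the 30 members under 1 CPM at 0 h rested on few counts there, with a median of 5 and at most 33 in a library.

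**Figure D2:**
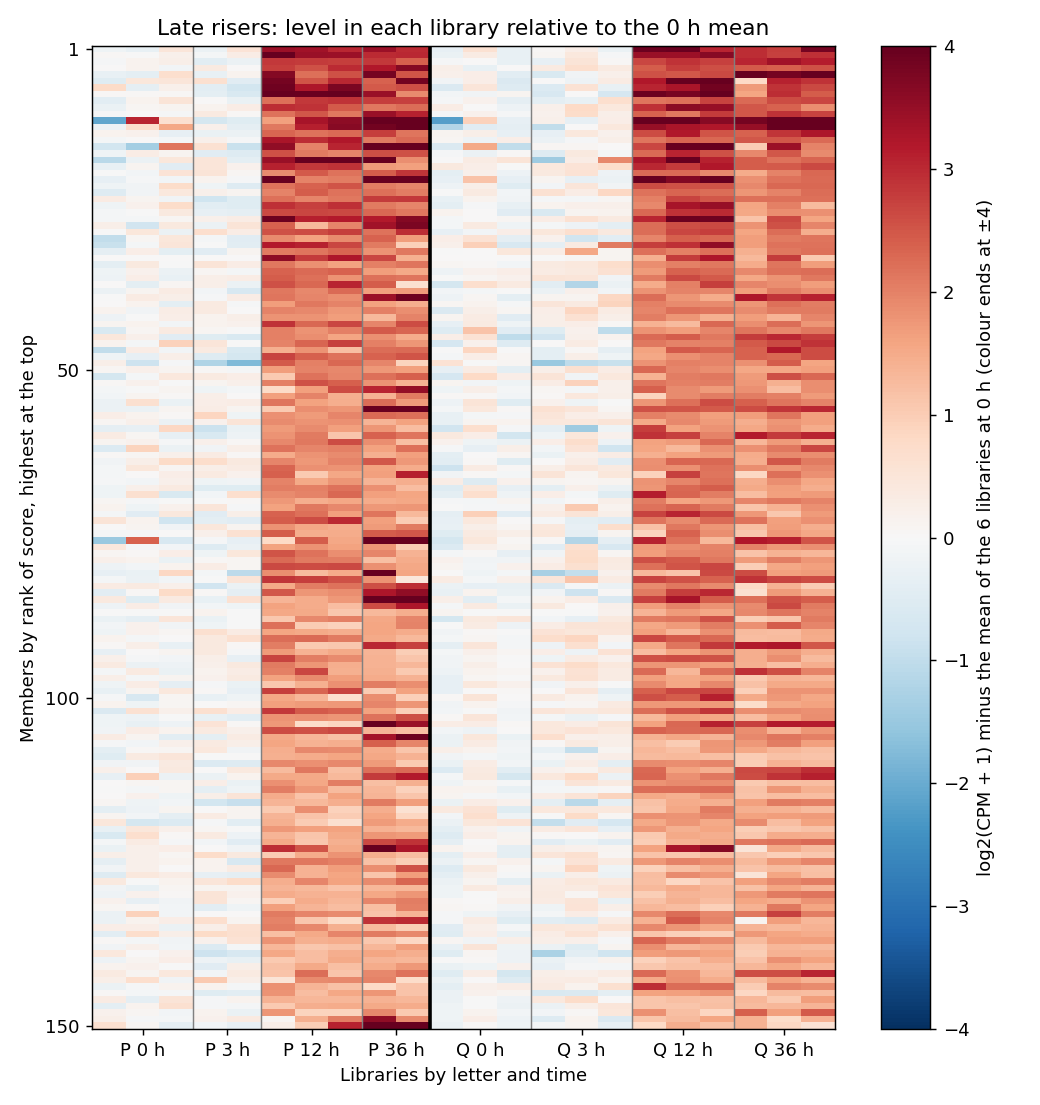
Level of each member (rows, ranked by score) in each of the 22 libraries (columns, P left of Q, times in order), as log2(CPM + 1) minus its mean over the 6 libraries of 0 h; red is higher, blue is lower, and the colour ends at 4 in either direction. The columns of 12 and 36 h are red in both letters because the rule chose them so, and the columns of 0 and 3 h are mostly pale.

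TRINITY_DN3808_c0_g1 had the highest score, 3.15. In P it had 3.04, 2.69 and 5.34 CPM at 0 h, 2.83 and 5.63 CPM at 3 h, 47.7, 45.9 and 36.1 CPM at 12 h, and 48.1 and 35.1 CPM at 36 h. In Q it had 2.61, 5.9 and 2.7 CPM at 0 h, 3.72, 4.41 and 2.78 CPM at 3 h, 68.1, 68.5 and 36.8 CPM at 12 h, and 34.2, 30.1 and 63.5 CPM at 36 h. Its early and late libraries are far apart, and the libraries of P and Q overlap at each time. Between 12 and 36 h its level was not called different in P, with a log2 change of -0.06 (SE 0.39), or in Q, with -0.44 (SE 0.35).

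TRINITY_DN2832_c2_g1, of the second highest score, stood at 13.3, 12.7 and 15.3 CPM in P at 0 h, 12.3 and 16.1 CPM at 3 h, 230.0, 153 and 150.3 CPM at 12 h, and 109.5 and 111 CPM at 36 h. In Q it stood at 10.6, 16.7 and 10.5 CPM at 0 h, 13.7, 17.9 and 12.5 CPM at 3 h, 153, 150.2 and 175 CPM at 12 h, and 108, 92.5 and 106 CPM at 36 h. It was highest at 12 h in both letters, and all 5 libraries of 36 h lay below the 6 of 12 h. TRINITY_DN2600_c0_g1, the third, held its 12 h level more closely. It had 19.6, 22.1 and 23.9 CPM at 0 h in P, 14.9 and 17.2 CPM at 3 h, 148, 145 and 144 CPM at 12 h, and 148 and 109.8 CPM at 36 h. The Q libraries had 19.3, 20.4 and 16.2 CPM at 0 h, 16, 29.4 and 21 CPM at 3 h, 133, 155 and 140.3 CPM at 12 h, and 175, 215 and 187 CPM at 36 h. At 36 h the P libraries lay below those of Q, without overlap.

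The other 7 members of highest score began low. TRINITY_DN61551_c0_g1, TRINITY_DN63260_c0_g1, TRINITY_DN6389_c0_g1 and TRINITY_DN13566_c0_g1 were at or under 2.14 CPM in every library of 0 h, and TRINITY_DN2577_c4_g1 was at 1.35 to 1.8 CPM. TRINITY_DN8941_c3_g3 and TRINITY_DN9719_c0_g1 began somewhat higher, and the second of them was at 24.8 to 42.3 CPM in the 11 libraries of 12 and 36 h, against 3.39 to 8.35 CPM in the 11 of 0 and 3 h. TRINITY_DN6389_c0_g1 was uneven among libraries of 1 group: in Q at 36 h it had 1.7, 12.1 and 10.6 CPM, and in P at 36 h 6.97 and 21.6 CPM.

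The most abundant member was TRINITY_DN2832_c1_g2. It had 450.0, 393 and 518 CPM in P at 0 h, 394 and 512 CPM at 3 h, 941, 1693 and 903 CPM at 12 h, and 1797 and 1895 CPM at 36 h. In the Q libraries it had 268, 505 and 292 CPM at 0 h, 439, 420.4 and 509 CPM at 3 h, 1930.2, 1200.0 and 1045 CPM at 12 h, and 2461, 2515 and 3023 CPM at 36 h. Every library of 36 h was above every library of 12 h of its letter. TRINITY_DN5442_c0_g1, next in abundance, was far less even: it had 4.62, 195 and 36.3 CPM in P at 0 h, against 656 and 643 CPM at 36 h, and 4.13, 44.4 and 17.8 CPM in Q at 0 h. One of its 0 h libraries of P was thus above the lowest of its 12 h libraries, at 72.4 CPM.

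The other abundant members were TRINITY_DN9259_c0_g1, TRINITY_DN16862_c0_g1 and TRINITY_DN8707_c0_g1. TRINITY_DN8707_c0_g1 was the most even: it had 82.4, 106 and 97.7 CPM in P at 0 h, 135 and 106 CPM at 3 h, 264, 246 and 251 CPM at 12 h, and 275 and 319 CPM at 36 h. In Q it had 84.2, 93.7 and 103 CPM at 0 h, 121, 99.2 and 128 CPM at 3 h, 187, 244 and 240.4 CPM at 12 h, and 315, 401 and 414 CPM at 36 h. Its level was about 3 times the 0 h level in P at 36 h and about 4 times in Q. CPM is not divided by transcript length, so these levels rank members by counts and not by molecules.

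One member had no count at all at the start. TRINITY_DN854_c5_g5, singled out after its values were seen, had 0 counts in all 6 libraries of 0 h and in both of P at 3 h. In P it had 143, 79 and 123 counts at 12 h, and 95 and 31 counts at 36 h. The Q libraries had 1 count in each of 2 libraries of 3 h, 26, 91 and 143 counts at 12 h, and 23, 105 and 16 counts at 36 h. Set against a floor of 3 counts over the 0 h group, its mean CPM was at least 153-fold higher at 12 h and at least 63.4-fold higher at 36 h in P, and at least 97.9-fold and 51.5-fold higher in Q. Such bounds cover counting error only, and the gene shares its Trinity cluster with other assembled genes.

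A gene was called, here and below, at a Benjamini-Hochberg adjusted p under 0.05 in edgeR's quasi-likelihood test over the 21694 genes tested. Against 0 h, where the rule used the same contrast and nothing can be read from a count, 146 members were called higher at 12 h and 149 at 36 h in P, beside 15.5% and 19.1% of all genes. In Q, 150 were called higher at 12 h and 147 at 36 h, beside 17.9% and 14.1%. All 4 calls were made for 143 members and for 5.67% of all genes. In 137 members all 11 libraries of 12 and 36 h lay above all 11 of 0 and 3 h, which held for 3.23% of all genes. The 13 members with overlap include TRINITY_DN5442_c0_g1, TRINITY_DN38163_c0_g1, TRINITY_DN63185_c0_g1, TRINITY_DN180_c4_g1, TRINITY_DN6517_c1_g2 and TRINITY_DN10357_c0_g1.

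At 3 h, where the rule set an upper limit, 5 members were called lower than at 0 h in P and none higher, beside 5.26% of all genes, 1.49% lower and 3.77% higher. In Q, 5 were called lower and 9 higher, beside 9.72% of all genes, 3.82% lower and 5.90% higher. With library totals in place of TMM, Q had 5 lower and 4 higher. Of those calls 44.4% were higher, beside 37.8% of the calls over all genes. With TMM these shares were 64.3% and 60.7%, so the background moved too. These counts are limited by the rule, and nothing is read from them. TRINITY_DN6833_c0_g1, TRINITY_DN8024_c0_g1 and TRINITY_DN44_c2_g1 were called lower in both letters and are named after their values were seen. TRINITY_DN6833_c0_g1 had 9.47, 4.01 and 7.64 CPM at 0 h in P, 2.83 and 1.6 CPM at 3 h, 47.1, 35.1 and 42.2 CPM at 12 h, and 33.6 and 15.3 CPM at 36 h. In the Q libraries it had 12.1, 7.74 and 8.32 CPM at 0 h, 2.19, 3.41 and 3.76 CPM at 3 h, 29.6, 34.8 and 34 CPM at 12 h, and 30.6, 46.7 and 25.6 CPM at 36 h. Each library of 3 h lay below all libraries of 0 h of its letter, and those of 12 and 36 h lay above them.

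**Figure D3:**
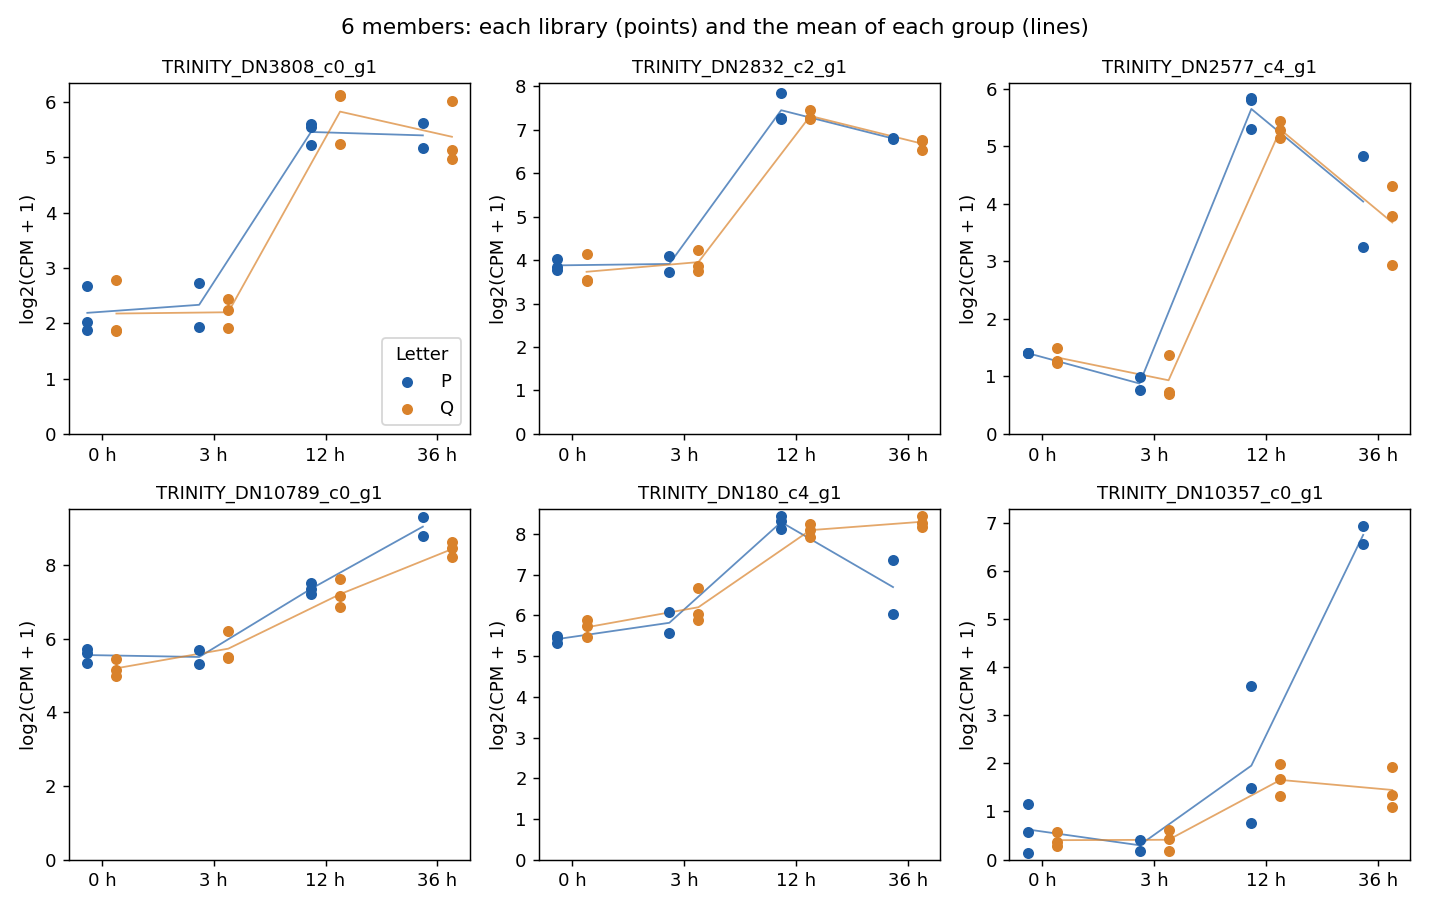
Level of 6 members as log2(CPM + 1) (y axis) at the 4 time labels (x axis), with 1 point per library, P in blue and Q in orange, and lines through the group means. TRINITY_DN3808_c0_g1 and TRINITY_DN2832_c2_g1 follow the same course in both letters, while at 36 h the libraries of P lie below those of Q for TRINITY_DN180_c4_g1 and above them for TRINITY_DN10357_c0_g1.

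The members were also compared between 36 and 12 h. The rule made no such contrast, but it asked for a high level at both times. Genes that fell back by 36 h or rose only after 12 h scored low. The same libraries also enter the rule and this comparison. In P, 36 members (24.0%) were called different at 36 h from 12 h, 19 higher and 17 lower, beside 33.3% of all genes, 17.5% higher and 15.8% lower. In Q, 37 members (24.7%) were called, 8 higher and 29 lower, beside 23.9% of all genes, 12.5% higher and 11.4% lower. The share called was thus near the background in Q and below it in P, and in Q it lay on the lower side. The median log2 change was -0.00 in P and -0.20 in Q, against 0.06 and 0.04 over all genes. In P, 111 members (74.0%) were within 2-fold of their 12 h level at 36 h, beside 68.3% of all genes, and in Q 128 (85.3%), beside 76.3%. The rule in part sets the shares called and the shares within 2-fold, so they are given as a description. With library totals in place of TMM the median of all genes moved to 0.26 in P and 0.12 in Q. The members' calls became 32 higher and 12 lower in P, and 10 higher and 22 lower in Q. Of these calls 72.7% were higher in P, beside 70% of the calls over all genes, and 31.2% in Q, beside 63.2%. With TMM 52.5% of the calls over all genes were higher in P and 52.4% in Q, so the background moved too. Without Q 36 h replicate 1 or replicate 2, 21 or 24 calls were made in Q. The shares of all genes called in these fits are not given here, so nothing is read from the counts. Leaving out a library of P at 36 h leaves 1 in that group, so its count is not read.

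Called changes in the 2 letters overlapped in part. Both were lower for 10 members, both higher for 2, and P was higher where Q was lower for 2, while no member was lower in P and higher in Q. Another 91 members were called in neither. P alone was called for 22 members, 15 higher and 7 lower, and Q alone for 23, 6 higher and 17 lower, but a call in 1 letter only does not show that the letters differ. Over the 150 members, the log2 changes in the 2 letters were correlated at 0.25 (Pearson's r) and 0.40 (Spearman's rho), which is a description, since the members share libraries and depth. Neither the joint counts nor the correlations were worked out over all genes, so nothing is read from the overlap.

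TRINITY_DN6095_c0_g1 was among the members lower at 36 h in both letters. It had 12.5 and 11.2 CPM at 36 h in P, against 31.7, 30.1 and 32 CPM at 12 h, a log2 change of -1.40 (SE 0.17, edgeR adjusted p = 7.78e-06). In Q it had 18.3, 12.9 and 17.1 CPM at 36 h, against 26.4, 24.2 and 25.1 CPM at 12 h, a log2 change of -0.65 (SE 0.15, edgeR adjusted p = 0.00373). At 0 h it had 3.63 to 5.49 CPM over both letters, so at 36 h it was still more than 2 times as high as at the start.

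TRINITY_DN2577_c4_g1 had 27.4 and 8.49 CPM at 36 h in P, against 54.8, 38.5 and 56 CPM at 12 h, a log2 change of -1.47 (SE 0.42, edgeR adjusted p = 0.0119). The Q libraries had 6.67, 18.8 and 12.7 CPM at 36 h, against 37.7, 34.5 and 42.5 CPM at 12 h, a log2 change of -1.58 (SE 0.37, edgeR adjusted p = 0.00502). The libraries of 36 and 12 h do not overlap in either letter. The call in P was lost without P 36 h replicate 2, with a change of -0.84 at an edgeR adjusted p of 0.181, and without replicate 1 the change was -2.54. TRINITY_DN2319_c0_g1 had 23.7, 32.9 and 18.9 CPM at 36 h in Q, against 30.5, 81 and 91.5 CPM at 12 h, a log2 change of -1.42 (SE 0.30, edgeR adjusted p = 0.00263). Here 1 library of 36 h was above the lowest of 12 h.

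TRINITY_DN7167_c0_g2 had 3.46, 4.61 and 5.01 CPM at 36 h in Q, against 27.4, 15.4 and 37.4 CPM at 12 h, with no overlap. Its log2 change of -2.62 (SE 0.89, edgeR adjusted p = 0.0429) was called with all libraries only: without any 1 of the 6 the edgeR adjusted p was 0.0504 to 0.123, and DESeq2 gave an adjusted p of 0.116. In P, where it was not called, it had 39.3 and 19.9 CPM at 36 h, against 26.1, 4.01 and 4.2 CPM at 12 h. The letters thus went opposite ways in their means for this member.

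The members that were higher at 36 h than at 12 h in both letters were TRINITY_DN10789_c0_g1 and TRINITY_DN2599_c3_g1, of which the second was named after its values were seen. TRINITY_DN10789_c0_g1 had 442 and 631 CPM at 36 h in P, against 181, 161 and 148 CPM at 12 h, a log2 change of 1.71 (SE 0.24, edgeR adjusted p = 2.98e-05). In the Q libraries it had 392, 299.5 and 351 CPM at 36 h, against 197, 141 and 115 CPM at 12 h, a log2 change of 1.20 (SE 0.22, edgeR adjusted p = 0.000723). It was at 30.7 to 51.6 CPM in the 6 libraries of 0 h, far below both later times. TRINITY_DN2599_c3_g1 had 132 and 156 CPM at 36 h in P, against 60.7, 44.5 and 56.7 CPM at 12 h, a log2 change of 1.41 (SE 0.18, edgeR adjusted p = 8.98e-06). In Q it had 90.4, 94.8 and 101 CPM at 36 h, against 41.3, 54.9 and 59.4 CPM at 12 h, a log2 change of 0.88 (SE 0.16, edgeR adjusted p = 0.000741). Both members kept their calls with any 1 library left out.

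In Q alone the largest called rise was that of TRINITY_DN63260_c0_g1, with 36.7, 27.1 and 37.8 CPM at 36 h, against 10.4, 9.93 and 11.3 CPM at 12 h, a log2 change of 1.68 (SE 0.50, edgeR adjusted p = 0.0228). Without any 1 of the libraries except Q 36 h replicate 2 this call was lost, at an edgeR adjusted p of up to 0.0728. The abundant TRINITY_DN2832_c1_g2, whose values are given above, had a log2 change of 0.94 (SE 0.27, edgeR adjusted p = 0.0154) in Q, and this call was lost without Q 12 h replicate 2 or 3 or Q 36 h replicate 3, at an edgeR adjusted p of up to 0.0843. TRINITY_DN8707_c0_g1 rose by 0.75 on the log2 scale in Q (SE 0.14, edgeR adjusted p = 0.001), and kept its call with any 1 library left out. In P its log2 change was 0.23 (SE 0.16), which was not called.

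In P the members with the largest rise at 36 h were TRINITY_DN10357_c0_g1, TRINITY_DN63185_c0_g1 and TRINITY_DN38163_c0_g1. TRINITY_DN10357_c0_g1, the last member inside the rule, had 92.6 and 122 CPM at 36 h in P, against 0.693, 1.82 and 11.2 CPM at 12 h, a log2 change of 4.54 (SE 0.76, edgeR adjusted p = 0.000264). Without P 12 h replicate 3, its high library at 12 h, the change was 6.42, and without the others it was 4.02 to 4.74. The Q libraries had 2.77, 1.54 and 1.12 CPM at 36 h, against 1.48, 2.94 and 2.2 CPM at 12 h. Its entry among the members therefore rests on a small difference in Q and on 1 high library of P at 12 h, and 2 of its later libraries did not exceed the highest of its early ones.

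TRINITY_DN63185_c0_g1 had 176 and 342 CPM at 36 h in P, against 5.93, 20 and 10.5 CPM at 12 h, a log2 change of 4.41 (SE 0.99, edgeR adjusted p = 0.00306). Its 0 h libraries in P, at 0.409, 19.1 and 1.55 CPM, overlapped those of 12 h. In the Q libraries it had 35, 32.8 and 21.4 CPM at 36 h, against 32.7, 16.8 and 8.79 CPM at 12 h. TRINITY_DN38163_c0_g1 had 519.7 and 621 CPM at 36 h in P, against 96.7, 32.1 and 67.9 CPM at 12 h, a log2 change of 3.12 (SE 1.06, edgeR adjusted p = 0.0345). Without any 1 of these 5 libraries its edgeR adjusted p was 0.0535 to 0.12. In Q it had 15.7, 88 and 31.7 CPM at 36 h, against 52.5, 222 and 196 CPM at 12 h. Both members were thus uneven within groups at 0 and 12 h, and both P libraries of 36 h were above all other libraries.

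Further members of this kind include the abundant TRINITY_DN9259_c0_g1, with 459.6 and 599 CPM at 36 h in P, against 188, 188 and 162 CPM at 12 h, a log2 change of 1.56 (SE 0.36, edgeR adjusted p = 0.00319). The Q libraries had 404, 488 and 568 CPM at 36 h, against 332, 233 and 286 CPM at 12 h, a log2 change of 0.78 (SE 0.33, edgeR adjusted p = 0.0984), which was not called although the libraries do not overlap. TRINITY_DN6517_c1_g2 had 17.7 and 4.98 CPM at 36 h in P, against 0.693, 3.33 and 5.64 CPM at 12 h, a log2 change of 1.81 (SE 0.68, edgeR adjusted p = 0.0483), and its call was lost without P 12 h replicate 1 or 2 or P 36 h replicate 1, at an edgeR adjusted p of up to 0.633. The change was 0.64 without P 36 h replicate 1, 2.46 without replicate 2 and 2.49 without P 12 h replicate 3.

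The letters were next compared at each time. The rule made no such contrast, but its score is the smallest difference over both letters. It therefore favours genes that were high in P and in Q at 12 and 36 h. At 0 h, 0 members and 0% of all genes were called different between P and Q in edgeR, with 8 members under an unadjusted p of 0.05 and 0 called by DESeq2. At 3 h, 0 members were called, beside 0.0138% of all genes, 0.00922% higher and 0.00461% lower, with 10 members under an unadjusted p of 0.05 and 0 called by DESeq2. At 12 h, 5 members (3.33%) were called, 1 higher and 4 lower in P, beside 3.57% of all genes, 2.26% higher and 1.31% lower. At 36 h, 22 members (14.7%) were called, 16 higher and 6 lower in P, beside 13.7% of all genes, 8.72% higher and 4.94% lower. These shares are near the background at each time. At 12 h the levels in P and Q were within 2-fold for 139 members (92.7%), beside 84.3% of all genes, and at 36 h for 126 (84.0%), beside 78.0%. The rule in part sets these shares and the numbers called at 12 and 36 h, so nothing is read from them.

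The 12 h counts depended on single libraries: 1 call was left without P 12 h replicate 2, 0 without P 12 h replicate 3, 2 without Q 12 h replicate 1 and 0 without Q 12 h replicate 2, and a fit of the compared libraries alone made 0 calls. At 36 h, 13 calls were left without Q 36 h replicate 1. Without P 36 h replicate 2 that group holds 1 library, so neither the count nor its direction is read. The shares of all genes called in these fits are not given here, so nothing about the members is read from the counts.

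At 12 h the member called higher in P was TRINITY_DN314_c1_g3, with 23.3, 18.4 and 22.1 CPM in P, against 9.99, 11.7 and 11.4 CPM in Q, a log2 difference of 0.95 (SE 0.20, edgeR adjusted p = 0.0177). At 36 h it had 9.73 and 11.2 CPM in P, against 13, 13.1 and 11.2 CPM in Q, so the letters no longer stood apart. The call at 12 h was lost without P 12 h replicate 3 or Q 12 h replicate 1 or 2, at an edgeR adjusted p of up to 0.118.

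The 4 members called lower in P at 12 h were TRINITY_DN1147_c0_g2, TRINITY_DN7479_c0_g1, TRINITY_DN474_c0_g1 and TRINITY_DN3778_c0_g2. TRINITY_DN1147_c0_g2 had 7.39, 6.36 and 3.58 CPM in P, against 16.5, 14.5 and 24.2 CPM in Q, a log2 difference of -1.67 (SE 0.34, edgeR adjusted p = 0.0169). TRINITY_DN7479_c0_g1 had 4.47, 1.74 and 2 CPM in P, against 4, 6.99 and 12.7 CPM in Q, a log2 difference of -1.53 (SE 0.39, edgeR adjusted p = 0.0357), and 1 library of P was above the lowest of Q. TRINITY_DN474_c0_g1 had 27.7, 19.9 and 17.1 CPM in P, against 61.5, 37.6 and 38.4 CPM in Q, a log2 difference of -1.09 (SE 0.27, edgeR adjusted p = 0.0348). These 3 calls were lost without P 12 h replicate 2 or 3 or Q 12 h replicate 2, and for some of them without further libraries, at an edgeR adjusted p of up to 0.168.

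TRINITY_DN3778_c0_g2, named after its values were seen, was the member called between letters at both 12 and 36 h, and with opposite signs. At 12 h it had 8.24, 15.3 and 14.2 CPM in P, against 24.8, 24.6 and 23.6 CPM in Q, a log2 difference of -0.95 (SE 0.22, edgeR adjusted p = 0.0271). At 36 h it had 67.9 and 96.9 CPM in P, against 26.4, 31.6 and 35.1 CPM in Q, a log2 difference of 1.41 (SE 0.24, edgeR adjusted p = 0.000623). The libraries of the letters do not overlap at either time. This member shares its Trinity cluster with 1 other gene, so its reads may be split. The 12 h call was lost without any 1 of the libraries except Q 12 h replicate 3, at an edgeR adjusted p of up to 0.102, and the 36 h call held without each library in turn.

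At 36 h the members highest in P relative to Q were those that rose most in P. TRINITY_DN10357_c0_g1 was higher in P by 5.88 on the log2 scale (SE 0.82, edgeR adjusted p = 0.000238), TRINITY_DN38163_c0_g1 by 3.66 (SE 1.08, edgeR adjusted p = 0.0363) and TRINITY_DN63185_c0_g1 by 3.12 (SE 0.94, edgeR adjusted p = 0.0381). The first of these calls held without each library in turn. The second was lost without either library of P at 36 h or Q 36 h replicate 1 or 3, at an edgeR adjusted p of up to 0.146, and stood at 4.59 without Q 36 h replicate 2, and the last without any 1 of the 5 libraries, at 0.0602 to 0.245. Of the 16 members called higher in P at 36 h, 10 were also called higher at 36 h than at 12 h in P and 5 lower in Q. These comparisons share libraries of 36 h, and such double calls were not counted over all genes, so nothing is read from them. TRINITY_DN61551_c0_g1, among the highest scores, had 13.4 and 18.8 CPM in P, against 7.55, 7.16 and 7.98 CPM in Q, a log2 difference of 1.09 (SE 0.30, edgeR adjusted p = 0.0194), which was lost without P 36 h replicate 2 or Q 36 h replicate 2, at an edgeR adjusted p of up to 0.242.

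TRINITY_DN180_c4_g1 had the largest difference of the members called lower in P at 36 h with a mean of at least 5 CPM, the limit for naming. It had 164 and 64.3 CPM in P, against 349, 309 and 288 CPM in Q, a log2 difference of -1.47 (SE 0.30, edgeR adjusted p = 0.00329). At 12 h it had 345, 319 and 277 CPM in P, against 304, 274 and 243 CPM in Q, so it fell in P between 12 and 36 h, by 1.46 on the log2 scale (SE 0.30, edgeR adjusted p = 0.00108), while in Q the log2 change of 0.21 (SE 0.25) was not called. Its 2 libraries of P at 36 h were more than 2-fold apart, and the lower of them was below 1 library of Q at 3 h, at 101 CPM. Without P 36 h replicate 2 the difference between letters was -0.92 at an edgeR adjusted p of 0.054, and without replicate 1 it was -2.27. The change in P was -0.92 and -2.27 without the same libraries, and stayed called.

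TRINITY_DN5402_c0_g2 had 81.9 and 78.7 CPM in P at 36 h, against 135, 139 and 156 CPM in Q, a log2 difference of -0.84 (SE 0.17, edgeR adjusted p = 0.00291), lost without P 36 h replicate 2 at an edgeR adjusted p of 0.0544. At 12 h it had 214, 181 and 188 CPM in P and 202, 173 and 235 CPM in Q, so it fell in both letters. The log2 change was -1.27 in P (SE 0.17, edgeR adjusted p = 1.97e-05) and -0.51 in Q (SE 0.15, edgeR adjusted p = 0.0184), and the call in Q was lost without Q 12 h replicate 3 or Q 36 h replicate 1 or 2, at an edgeR adjusted p of up to 0.0689. TRINITY_DN750_c0_g1 had 85 and 71 CPM in P at 36 h, against 96.1, 126 and 127 CPM in Q, a log2 difference of -0.58 (SE 0.17, edgeR adjusted p = 0.0306), lost without P 36 h replicate 1 or 2 or Q 36 h replicate 2 or 3, at an edgeR adjusted p of up to 0.333. TRINITY_DN2600_c0_g1, whose values are given above, differed by -0.58 on the log2 scale (SE 0.19, edgeR adjusted p = 0.0452), lost without any 1 of 4 libraries at an edgeR adjusted p of up to 0.459.

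Whether the letters differed in the change from 12 to 36 h was tested as a difference of differences. This was called for 19 members (12.7%), with P above Q in 15 and below in 4, beside 14.2% of all genes, 7.77% above and 6.45% below. The share called was near the background. The rule asked for high levels at both times in both letters, which bears on this share too. The count became 12 without Q 12 h replicate 2, and the share of all genes called in that fit is not given here. Without either library of P at 36 h that group holds 1, and such counts are not read. With library totals in place of TMM the members had 17 calls above and 2 below. Of these calls 89.5% were above, beside 70.3% of the calls over all genes. With TMM these shares were 78.9% and 54.6%, so the background moved too. At 36 h itself, 11 of the 19 members were also called between letters, but both comparisons use the 36 h libraries, and this was not counted over all genes.

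**Figure D4:**
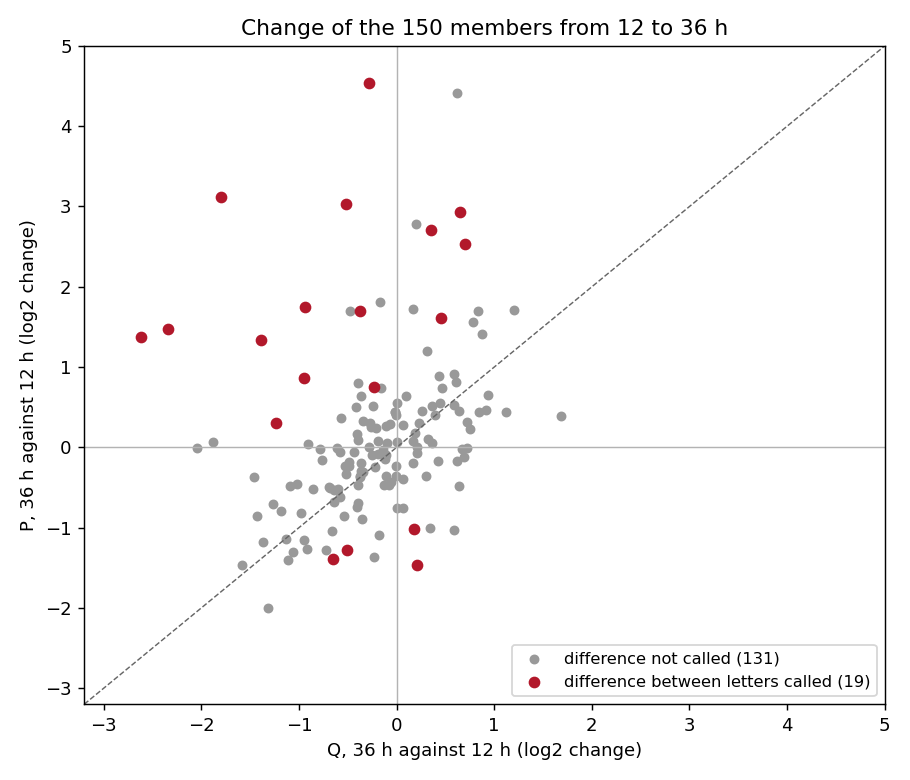
Log2 change of each member from 12 to 36 h in P (y axis) against that in Q (x axis), with 1 point per member, red where the difference between letters was called (19 members) and grey where it was not (131), and a dashed line of equal change. Of the red points, 15 lie above the line and 4 below it, and TRINITY_DN10357_c0_g1 is the topmost, at 4.54 in P and -0.28 in Q.

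TRINITY_DN7990_c0_g1 and TRINITY_DN2592_c0_g1, both named after their values were seen, were called higher in P and lower in Q at 36 h against 12 h. TRINITY_DN7990_c0_g1 had 25.2 and 32.8 CPM at 36 h in P, against 11.5, 17.1 and 19.1 CPM at 12 h, a log2 change of 0.87 (SE 0.25, edgeR adjusted p = 0.0106). In the Q libraries it had 6.74, 10.5 and 7.91 CPM at 36 h, against 15.2, 18.2 and 15.4 CPM at 12 h, a log2 change of -0.95 (SE 0.23, edgeR adjusted p = 0.00556). At 0 h P stood above Q by 0.76 on the log2 scale (SE 0.25), which was not called. At 3 h the member was called lower than at 0 h in P, at -1.02 on the log2 scale, and not in Q, at 0.03. The letters were level at 12 h and stood apart at 36 h. The change in P was lost without P 12 h replicate 1 or P 36 h replicate 2, at an edgeR adjusted p of up to 0.144.

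TRINITY_DN2592_c0_g1 had 150 and 187 CPM at 36 h in P, against 88.7, 53.4 and 57.3 CPM at 12 h, a log2 change of 1.34 (SE 0.37, edgeR adjusted p = 0.0102), lost without P 36 h replicate 2 at an edgeR adjusted p of 0.0938. In Q it had 23.6, 51.1 and 40.3 CPM at 36 h, against 66.6, 107 and 128 CPM at 12 h, a log2 change of -1.39 (SE 0.34, edgeR adjusted p = 0.0079). Its lowest library of Q at 36 h was below the highest of P at 0 h, at 26 CPM. The difference of the changes was 1.82 for TRINITY_DN7990_c0_g1 (SE 0.34, edgeR adjusted p = 0.00166) and 2.73 for TRINITY_DN2592_c0_g1 (SE 0.51, edgeR adjusted p = 0.00219).

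TRINITY_DN7479_c0_g1 had 24.9 and 17 CPM at 36 h in P, against 4.47, 1.74 and 2 CPM at 12 h, a log2 change of 2.94 (SE 0.42, edgeR adjusted p = 3.26e-05). The Q libraries had 9.95, 13.9 and 13.5 CPM at 36 h, against 4, 6.99 and 12.7 CPM at 12 h, a log2 change of 0.65 (SE 0.37) that was not called. The difference of the changes was 2.28 (SE 0.55, edgeR adjusted p = 0.00972). P was thus below Q at 12 h and its libraries were above those of Q at 36 h, where the difference of 0.75 (SE 0.40) was not called.

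In each group except P at 3 h, a larger share of the members than of all genes spanned at least 2-fold between libraries of the group. In P at 36 h, 13 members (8.67%) were this far apart between the 2 libraries on the log2(CPM + 1) scale, beside 4.53% of all genes tested, and 11 of the 13 were lower in replicate 2. At 0 h, 27 members (18%) spanned at least 2-fold in P and 20 (13.3%) in Q, beside 8.55% and 8.23% of all genes. At 12 h these numbers were 21 (14%) and 20 (13.3%), beside 8.61% and 7.63%. In P at 3 h, 3 members (2.00%) did so, beside 2.77%. No test was made of these shares, and the members' levels were not matched to those of all genes.

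The IDs also tell which assembled genes Trinity placed in 1 cluster, which share sequence and can share reads. The 150 members fell into 150 clusters. A total of 109 members were alone in theirs, and the other 41 had 60 cluster mates, of which 47 were tested. Of these 47 mates, 20 (42.6%) were called higher at 12 h and 11 (23.4%) at 36 h in P, beside the 15.5% and 19.1% of all genes given above. In Q, 19 (40.4%) were called higher at 12 h and 10 (21.3%) at 36 h, beside 17.9% and 14.1%. The mates' share called higher was above the background at 12 h and nearer to it at 36 h. Called lower were 4 mates at 12 h and 4 at 36 h in P, beside 16.6% and 17.7% of all genes. In Q these were 5 and 5, beside 19.9% and 15.3%. Mates can share reads with members that the rule chose on these same contrasts, so nothing is read from the shares. At both times in both letters 7 mates (14.9%) were called higher, beside 5.67% of all genes. TRINITY_DN14140_c0_g2, a mate with a log2 change of 2.64 in P and 3.34 in Q at 12 h, already stood 1.55 above 0 h on the log2 scale at 3 h in P. It is named after its values were seen, and reads shared with the member of its cluster could move either gene's counts.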

How the data were processed

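Leaf mRNA was sequenced in 22 libraries of 8 groups, taken from the letter and time in the sample titles. The authors deposited a table of raw counts, with 1 whole number per gene and library. The tools named per the submitters' processing notes are HISAT2, FastQC and featureCounts. Their versions and settings, the reference aligned to and the use of strand are not given in the sources used here. The table has 0 other value columns.

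The members and lists were chosen with earlier results of these data known. Members were chosen on CPM from column totals. Tests used edgeR 4.0.16 in R 4.3.3: filterByExpr over 8 groups with a minimum count of 10 (21694 genes), TMM scaling, dispersions from all 22 libraries (a common coefficient of biological variation of 0.26), and a robust quasi-likelihood test on contrasts of group means, with Benjamini-Hochberg adjustment over all genes in each of 13 contrasts, of which the 6 against 0 h are given as description. Groups of 2 libraries rest on the pooled spread. The standard error is the size of the log2 change divided by the square root of F. CPM values in the text use TMM-scaled library sizes, except in the rule and in the shares of counts.

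Total counts were 13743563 to 18462363 per library, with 99.8% to 99.9% in genes tested. Per gene, a chi-square between libraries of a group was far above 1 for each pair, so each counted as a replicate. Per the labels RNA was extracted plant by plant, but they do not tie libraries to plants or to separate experiments, and p-values measure only the spread between these libraries. Folds against 0 counts use a floor of 3 counts over the group.

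Members named by rule are the 10 of highest score; the last 3 inside and first 3 outside the rule; up to 3 higher and 3 lower with the largest called change, and a mean of at least 5 CPM, in P and Q at 36 h against 12 h and between letters at 12 and 36 h; and the 5 most abundant at 12 and 36 h. No members shared a Trinity cluster with each other, the last ground for naming. That gave 31 members, of which 9 share a Trinity cluster with another gene, so their reads may be split. Others are said to be named after their values were seen. Alternatives were RLE scaling, library totals, 2 other filters, DESeq2 1.42.0, a fit of the compared libraries only, replicate number as a block, a 2-fold minimum, leaving out each library, and other settings of the rule.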

Additional observations from a re-analysis of the deposited data

Results flagged for a closer look

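The change from 12 to 36 h differed between P and Q, by a test of the difference itself in edgeR, for 19 members, which is 12.7% of them beside 14.2% of all genes tested. Of the members named in the text, the difference on the log2 scale, P minus Q, was 4.82 for TRINITY_DN10357_c0_g1, 4.92 for TRINITY_DN38163_c0_g1, 3.99 for TRINITY_DN7167_c0_g2, 2.73 for TRINITY_DN2592_c0_g1, 2.36 for TRINITY_DN3778_c0_g2, 2.28 for TRINITY_DN7479_c0_g1, 1.82 for TRINITY_DN7990_c0_g1 and 1.54 for TRINITY_DN1147_c0_g2. It was -1.67 for TRINITY_DN180_c4_g1, -1.20 for TRINITY_DN314_c1_g3, -0.77 for TRINITY_DN5402_c0_g2 and -0.74 for TRINITY_DN6095_c0_g1. With any 1 of the 11 libraries left out, this difference stayed called for TRINITY_DN10357_c0_g1, TRINITY_DN2592_c0_g1, TRINITY_DN3778_c0_g2, TRINITY_DN7479_c0_g1, TRINITY_DN7990_c0_g1 and TRINITY_DN180_c4_g1.

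With 1 library left out the difference moved to 6.73 for TRINITY_DN10357_c0_g1 (P 12 h replicate 3), 5.85 for TRINITY_DN38163_c0_g1 (Q 36 h replicate 2), 5.45 for TRINITY_DN7167_c0_g2 (P 12 h replicate 1), and -2.46 or -1.11 for TRINITY_DN180_c4_g1 (P 36 h replicate 1 or 2). For TRINITY_DN314_c1_g3 it was lost without P 36 h replicate 1, at an edgeR adjusted p of 0.0716. For TRINITY_DN5402_c0_g2 it was lost without either library of P at 36 h, Q 12 h replicate 1 or 2, or Q 36 h replicate 3, at an edgeR adjusted p of up to 0.126. For TRINITY_DN38163_c0_g1, TRINITY_DN1147_c0_g2 and TRINITY_DN6095_c0_g1 it was lost without any 1 of 8 libraries, at an edgeR adjusted p of up to 0.309, and for TRINITY_DN7167_c0_g2 without any 1 of 10, at an edgeR adjusted p of up to 0.166. Groups of 2 or 3 libraries are too small for a test of single outlying libraries.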

How the results depend on the processing

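The number of members called kept within 1.5 times of its main value under most settings, with these exceptions. For Q at 36 h against 12 h it was 16 with a 2-fold minimum and 56 in a fit of the compared libraries only, in place of 37. For P against Q at 12 h it was 3 with a 2-fold minimum, 3 with the replicate block and 0 in a fit of the compared libraries only, in place of 5. With each library left out in turn it was 21 to 37 for P at 36 h against 12 h, 21 to 30 for Q at 36 h against 12 h, 0 to 6 for P against Q at 12 h, 7 to 16 at 36 h, and 11 to 21 for the difference in change; at 0 and 3 h it was 0 in each fit. The cause was not tested, and the shares of all genes called under these settings are not given here. Of the 150 members, a rule with other settings chose again 97 with a pseudocount of 5, 87 with a 3 h limit of 0.25, 62 with a limit of 1 and 16 with no limit at 3 h, where genes that were already high at 3 h take the places; it chose again 124 to 148 with 1 library left out, and 119 to 149 under the other 4 settings. Of 65 results of named members, 24 kept their call in every alternative, 29 with each library left out, and 0 changed direction. Libraries with the same replicate number did not deviate together throughout (15 correlations of -0.18 to 0.13, 1 of them over 0.1; 5 of 6 libraries were best with their own number between P and Q at 0 h, where the 3 correlations were 0.07 to 0.13, but 2 of 6 in Q between 36 and 12 h and 0 of 6 between P and Q at 12 h), so the numbers were not taken as pairing; with the replicate block 37 members were called for P and 32 for Q at 36 h against 12 h, 22 between letters at 36 h and 17 in the change. Depth limits members under 1 CPM, since 1 CPM was at most 18.5 counts in a library.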
